A study of Homo sapiens with 3 samples.

Results

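SPINK1, a secreted inhibitor of trypsin, was examined together with 7 genes of the gastrointestinal lineage: the transcription factors HNF4G, HNF4A and CDX2, the serpin SERPINA1, the membrane mucin MUC13, and the glucuronosyltransferases UGT2B15 and UGT2B17. Every gene probe of the array that carried the name of one of these 8 genes was taken, which gave 10 of 58201 probes, and 7 of the 43317 gene names on the array. No probe carried the name UGT2B17, but the array's annotation lists a UGT2B17 transcript for the UGT2B15 probe.

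The cells were 22RV1, a human prostate carcinoma line that is positive for SPINK1. Cells transduced with lentivirus carried 1 of 3 hairpins against SPINK1 (22RV1-shSPINK1, hairpins 1, 2 and 3) or a scrambled hairpin (22RV1-shSCRM), and all were grown in RPMI-1640 with 10% fetal bovine serum and puromycin at 1 µg/mL. Each hairpin was set against 22RV1-shSCRM on 1 two-color array, with shSPINK1 cRNA in Cy5 and shSCRM cRNA in Cy3 on all 3 arrays. Whether the shSCRM RNA of the arrays came from separate cultures, and whether the lines were clones or pools, is not given in the sources used here. The p-values come from 3 ratios, 1 per hairpin, and whether their spread holds that between control cultures is unknown. Without a dye swap, a dye bias and an effect of the hairpins cannot be told apart.

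SPINK1 is made in large amounts by the exocrine pancreas, where it restrains trypsin that is activated too early, and it is also found in gut mucosa and in a subset of prostate cancers. HNF4A and HNF4G are nuclear receptors that bind DNA at the enhancers of liver and gut genes, and CDX2 sets the identity of the intestinal epithelium. SERPINA1 and MUC13 are typical products of liver and gut cells. UGT2B15 and UGT2B17 attach glucuronic acid to androgens, and both are also found in the prostate.

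The probes for SPINK1 and HNF4A are shown because they mark the part of each message that was read: SPINK1 carried the one large difference, while HNF4A stayed near the background. In the SPINK1 probe, capitals mark the stop codon of the reading frame, which is followed by 13 bases. Each probe is 60 bases long, is written 5′ to 3′ in the sense of the message, and comes from the array files.
SPINK1 (A_23_P214079): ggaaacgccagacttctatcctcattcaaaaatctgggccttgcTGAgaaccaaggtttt
HNF4A (A_23_P28761): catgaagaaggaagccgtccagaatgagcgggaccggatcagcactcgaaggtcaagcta
In hg19, the build of the array's annotation, the SPINK1 probe lies on the minus strand at chr5:147204211-147207585 and the HNF4A probe on the plus strand at chr20:43036102-43042379. Both intervals are much longer than the probes, so each probe joins bases of different exons.

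On the 3 arrays, 41.3% to 46.8% of gene spots were well above background in Cy5 and 38.8% to 42.6% in Cy3, and no gene spot was saturated. Only probes that exceeded the background clearly in the same channel of every array were kept, and each gene was read from its brightest kept probe, which left 17061 genes. The 3 arrays lay on 1 slide that was scanned on 1 day. All 13 prostate luminal markers listed were kept, with a median log2 ratio of -0.23. By limma's test 4 fell (30.8%, against 8.7% of all genes), among them TMPRSS2, KRT8 and STEAP2. KRT18 alone rose (7.69%, against 4.77% of all genes), with a mean of 0.35. KRT18 was at 0.12 (adjusted p 0.407 by limma) with Agilent's Feature Extraction log ratios and at 0.03 (adjusted p 0.655) with median centring of each array, and its call was also lost without background correction, without hairpin 2 and without hairpin 3. KRT8 went from -0.34 to -0.17 (adjusted p 0.0539 by limma) with the mean of its kept probes. The call of STEAP2 was lost without hairpin 2, without hairpin 3, without background correction and with an offset of 16 in that correction. With the Feature Extraction log ratios none of TMPRSS2, KRT8, STEAP2 and KRT18 passed the test. Of 12 markers of blood, endothelial and stromal cells, 6 were kept and none passed that test, and CD3E, PECAM1, COL1A2 and COL3A1 were not above background on any array.

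SPINK1 fell with every hairpin. Its probe read 1000, 827 and 709 scanner units in Cy5 with hairpins 1, 2 and 3, against 17100, 15200 and 16100 in the Cy3 channel of the same arrays. The control was thus bright on all arrays, and no shSPINK1 value came near a control value. The log2 ratios after normalization within each array were -3.71, -3.65 and -3.89. Their mean was -3.75 ± 0.12 (SD, n = 3 arrays), with a 95% interval of -3.89 to -3.61 and its p, from limma and adjusted by Benjamini-Hochberg over all genes, was 6.073e-07. This left 7.62%, 7.95% and 6.76% of the control level, or a 13.5-fold lower level on average. On each array, 0 of 17061 genes had a lower ratio than SPINK1. By the same test 8.7% of all genes were lower and 4.77% higher; 0.393% were lower and 0.322% higher by more than 0.5 on the log2 scale, and 29% were below 0 on all 3 arrays. RNA was taken from bulk cultures, so fewer cells with SPINK1 message and less message per cell cannot be told apart.

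The 3 hairpins differed little in their effect on SPINK1. The largest gap, between hairpins 2 and 3, was 0.23 on the log2 scale, and 28.9% of all genes had a range over the hairpins at least as large. Repeated spots of probes of like brightness had a standard deviation of 0.05 within each array.

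**Figure D1:**
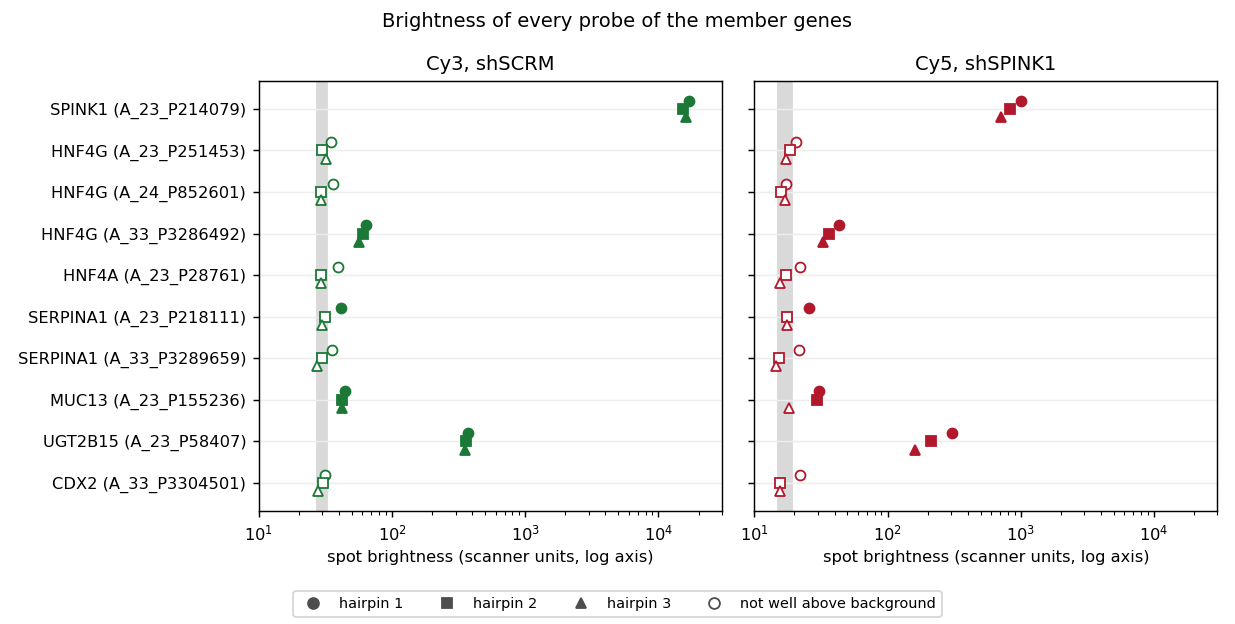
Brightness of the 10 probes in the shSCRM channel (Cy3, left) and the shSPINK1 channel (Cy5, right) on a log axis, with 1 point per hairpin; open points were not well above background, and the grey band runs from the lowest median to the highest 95th percentile of the negative control spots of the 3 arrays. SPINK1 is far above the band in both channels and dimmer in Cy5, while HNF4A, CDX2 and 4 further probes of HNF4G and SERPINA1 sit at or near it.

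The genes whose ratios were closest to those of SPINK1, by Euclidean distance over the 3 log2 ratios, were far from it. The nearest was MT3, a metallothionein that binds zinc and copper, at a distance of 4.52 with log2 ratios of -1.33, -1.13 and -0.99 (adjusted p 0.00457 by limma). VPS37D, a subunit of the ESCRT-I sorting complex, followed at 5.02 with ratios of -1.58, -0.77 and -0.37. The third was HIRA, a chaperone of histone H3.3, at 5.08 with ratios of -0.62, -1.39 and -0.56. With the Feature Extraction log ratios, MT3, VPS37D and HIRA did not pass limma's test (adjusted p 0.107, 0.150 and 0.137). The plot of all genes shows the gap that separated SPINK1 from these genes.

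**Figure D2:**
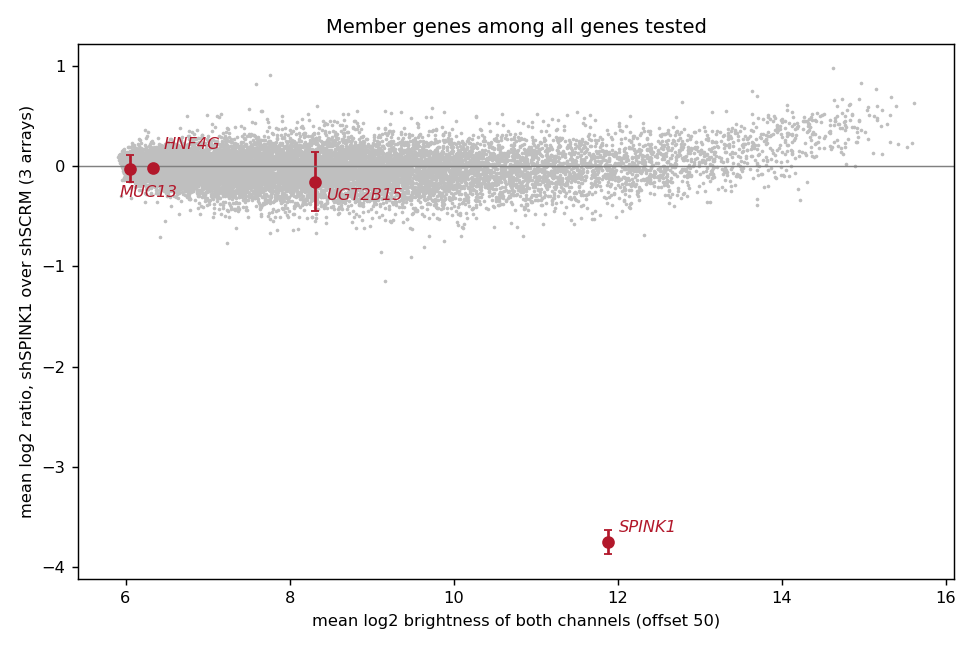
Mean log2 ratio of shSPINK1 over shSCRM (3 arrays) against mean log2 brightness of both channels for 17061 genes (grey), with SPINK1, HNF4G, MUC13 and UGT2B15 in red and their SD over 3 arrays as bars. SPINK1 lies at -3.75, apart from all other genes, and the other 3 lie within the grey cloud.

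Of the transcription factors, only HNF4G was measured, and its ratio was close to 0. HNF4G has 3 probes on the array. The kept probe (A_33_P3286492), at 76402375 to 76402434 on chromosome 8 in hg19, is annotated to the transcript ENST00000396419. It read 43.3, 36.3 and 32.7 in Cy5 and 63.8, 60.9 and 56.3 in Cy3, dim but clearly above background on every array in both channels. Raw Cy5 values were below Cy3 for most genes of like brightness: their median Cy5 reading was 64.7%, 60.4% and 59.2% of Cy3 on the 3 arrays, a trend that the normalization removes. The log2 ratios were 0.02, -0.04 and -0.02, with a mean of -0.02 ± 0.03 (SD, n = 3 arrays) and a 95% interval of -0.13 to 0.10 (adjusted p 0.870 by limma). The hairpins thus lay on both sides of 0, and 90.8% of all genes had a range over the hairpins at least as large.

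The other HNF4G probes read a part of the gene that lies 73970 and 75564 bases beyond the kept probe. A_23_P251453 read 20.5, 18.6 and 17.3 in Cy5 and 35.1, 29.9 and 32.1 in Cy3. A_24_P852601 read 17.3, 15.9 and 16.9 in Cy5 and 35.8, 29.3 and 29.1 in Cy3. Both were well above background on 0 of 3 arrays, so the 3 probes of HNF4G disagree on whether a message was detected, and the ratio above speaks for the transcript of the kept probe alone.

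The dimness of HNF4G limits what its ratio can show. Its net Cy3 signal over the local background was 36.3 to 43.8 scanner units, and 50 units were added to every corrected value before the logarithm. With that offset, a fall of such a Cy3 signal to 50% would read as a log2 ratio of -0.34 to -0.38. The 95% interval above does not reach that value. A fall would occur in Cy5, however, where the signal was dimmer. There it would read smaller, by an amount that was not computed, so no limit on a fall is drawn from the interval. With Agilent's own Feature Extraction log ratios, in which no such offset was added, the mean was 0.01 with an interval of -0.20 to 0.21.

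HNF4A and CDX2 were not measured. The HNF4A probe read 22.2, 17.4 and 15.5 in Cy5 and 39.2, 29.2 and 29.3 in Cy3. The CDX2 probe (A_33_P3304501), at 28536302 to 28536361 on chromosome 13 in hg19, read 22, 15.5 and 15.6 in Cy5 and 31.6, 30.4 and 27.6 in Cy3. Neither was well above background on any array in either channel, so no difference was detectable at this signal. The median of 308 negative control spots per array was 15.1 to 17.5 in Cy5 and 27.5 to 29.1 in Cy3, and the array of hairpin 1 was the brightest of the 3 in these controls as it was for both genes.

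SERPINA1, which encodes alpha-1-antitrypsin, was not measured either. Its probe A_23_P218111 read 25.7, 17.5 and 17.7 in Cy5 and 41.6, 31.4 and 29.8 in Cy3, and was well above background on the array of hairpin 1 alone, in both channels. The other probe (A_33_P3289659), at 94845450 to 94845509 on chromosome 14, read 21.5, 15.4 and 14.5 in Cy5 and 35.6, 29.7 and 27.3 in Cy3, and was not well above background on any array. With 1 array of 3 above background in shSCRM, these arrays give no ratio for SERPINA1.

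MUC13, a membrane-bound mucin of the gut surface, was dim. Its probe (A_23_P155236), at 124625256 to 124625315 on chromosome 3 in hg19, read 44.3, 42.3 and 42 in Cy3 and was well above background there on all 3 arrays. In Cy5 it read 30.4, 29.4 and 18.3, and was well above background with hairpins 1 and 2 but not with hairpin 3. The log2 ratios were 0.00, 0.09 and -0.17, with a mean of -0.03 ± 0.13 (SD, n = 3 arrays) and a 95% interval of -0.17 to 0.12 (adjusted p 0.826 by limma). The difference from shSCRM was thus smaller than the spread between the arrays. Without hairpin 3 the mean was 0.05.

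The low Cy5 value of MUC13 with hairpin 3 weighed very differently in Agilent's Feature Extraction log ratios, which were 0.17, 0.32 and -1.93 on the log2 scale, with a mean of -0.48 and a 95% interval of -1.71 to 0.75 (adjusted p 0.560 by limma). A fall to 50% of its net Cy3 signal of 22 to 26.3 units would read as -0.24 to -0.27 with the offset of 50. In the dimmer Cy5 channel, where a fall would occur, it would read smaller, by an amount that was not computed. Both settings left MUC13 with hairpin 3 lower than with the other hairpins, by an amount that was not settled.

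The probe shared by UGT2B15 and UGT2B17 split by hairpin. The array lists the transcripts NM_001076 (UGT2B15) and NM_001077 (UGT2B17) for this probe (A_23_P58407), at 69512758 to 69512817 on chromosome 4 in hg19, so the reading may be of either gene or of both. It read 373, 362 and 353 in Cy3, and 303, 213 and 162 in Cy5, well above the negative controls in each case. The control values were alike, and the shSPINK1 values differed. Genes of like brightness had a median raw Cy5 reading of 69.9%, 65.2% and 63.7% of Cy3, so hairpin 1 lay above that median and hairpins 2 and 3 below it. The log2 ratios were 0.14, -0.17 and -0.44 with hairpins 1, 2 and 3, or 110%, 88.8% and 73.7% of the control level. The mean was -0.16 ± 0.29 (SD, n = 3 arrays), with a 95% interval of -0.39 to 0.08 (adjusted p 0.348 by limma), so the mean difference did not exceed the spread between hairpins.

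The gaps between hairpins at this probe were 0.31 between hairpins 1 and 2, 0.27 between hairpins 2 and 3 and 0.58 between hairpins 1 and 3 on the log2 scale. Repeated spots of like brightness had a standard deviation of 0.06 within each array, and 1.73% of all genes had a range over the hairpins as large as 0.58. Each hairpin was measured on 1 array, so differences between hairpins and between arrays cannot be told apart. Without hairpin 1 the mean was -0.31 and passed limma's test (adjusted p 0.0163). With each array centred on its median in place of loess the mean was -0.48 (adjusted p 0.00908 by limma), while the median of all genes moved to -0.23 and 60.6% of all genes were called lower.

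**Figure D3:**
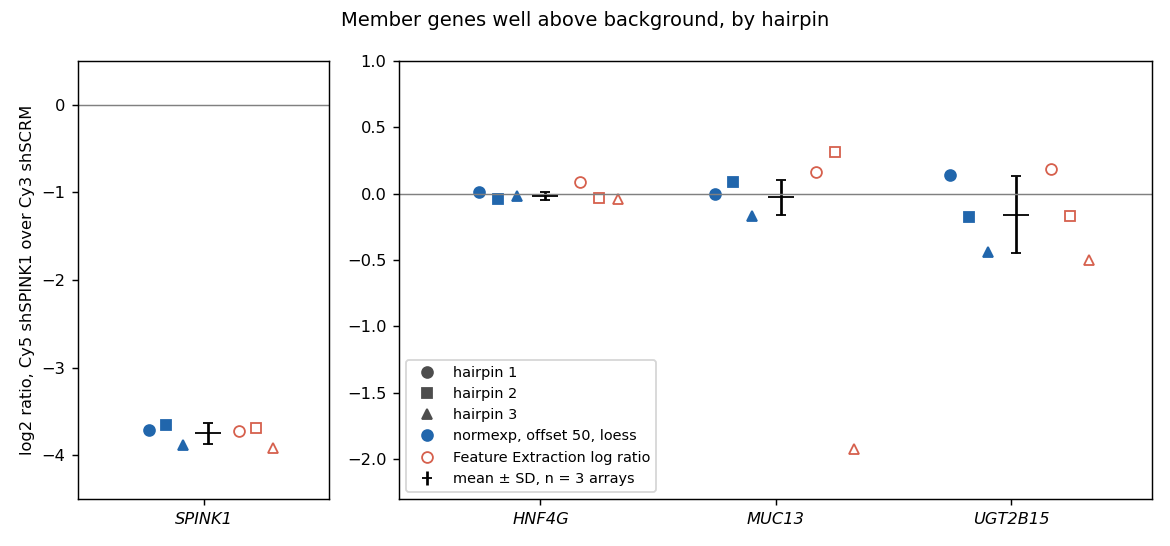
Log2 ratio of shSPINK1 over shSCRM for the 4 genes with a kept probe, by hairpin (point shape), after normexp with an offset of 50 and loess (filled, with mean ± SD over 3 arrays) and in Agilent's Feature Extraction output (open). SPINK1 is between -3.65 and -3.89 with every hairpin, HNF4G is close to 0, UGT2B15 runs from 0.14 to -0.44, and MUC13 with hairpin 3 is at -0.17 or at -1.93 depending on the processing.

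The other genes of the lineage could be read only in part. Across 5 lists (transcription factors, trypsins with their inhibitors and serpins, mucins and gut surface genes, glucuronosyltransferases and steroid conjugation genes, and liver plasma proteins), 163 of 172 genes had a probe and 68 were kept, while 75 were not above background on any array. Of the 68, 7 fell (10.3%, against 8.7% of all genes) and 2 rose (2.94%, against 4.77%) by limma. Without SPINK1, 6 of 67 fell (8.96%) and 2 rose (2.99%), and the median log2 ratio was -0.02, against -0.01 for all genes. These shares were near those of all genes. With median centring in place of loess, 30 of the 68 fell (44.1%, against 60.6% of all genes) and 1 rose. With the Feature Extraction log ratios, SPINK1 was the only call among the 68, and 3 of all genes were called.

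Among the lineage transcription factors, 17 of 35 were kept, 2 fell and none rose. KLF4, a zinc finger factor of differentiated gut epithelium, had log2 ratios of -0.40, -0.21 and -0.14 (mean -0.25, adjusted p 0.0403 by limma). That call did not hold when any 1 hairpin was left out. With the Feature Extraction log ratios, which carry no such offset, the mean of KLF4 was -0.52 (adjusted p 0.147 by limma).

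Among trypsins, their inhibitors and secreted serpins, SPINK1 was the only gene of 10 kept that passed the test, and the others lay between -0.08 and 0.21. Among mucins and gut surface genes, 17 of 40 were kept and 1 fell. That was EPCAM, an adhesion molecule of epithelia, which read 1540, 1300 and 1310 in Cy5 and 2330, 2240 and 2220 in Cy3, with log2 ratios of -0.22, -0.27 and -0.19 (mean -0.23, adjusted p 0.0277). The call was lost without hairpin 2 and without hairpin 3. It was also lost without background correction, with an offset of 16 and with the Feature Extraction log ratios.

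Of the glucuronosyltransferases and steroid conjugation genes, 14 of 26 with a probe were kept, 1 fell, 2 rose and 11 did not pass the test, with a list median of -0.002. UGT1A6, which conjugates small phenols, read 149, 85.8 and 98.3 in Cy5 and 112, 101 and 99.8 in Cy3, with log2 ratios of 0.74, 0.28 and 0.48 (mean 0.50, adjusted p 0.0149). The mean was 0.83 (adjusted p 0.110 by limma) when Agilent's log ratios were used and 0.27 (adjusted p 0.0352) with median centring. The array lists transcripts of UGT1A1, UGT1A4, UGT1A6 and UGT1A8 for this probe, so the reading may be of any of these genes or of several. UGT8, which adds galactose to ceramide, had log2 ratios of 0.33, 0.15 and 0.30 (mean 0.26, adjusted p 0.0281), and -0.03 with median centring. AKR1C3, which makes testosterone from androstenedione, read 2590, 2390 and 2190 in Cy5 and 4260, 3980 and 3910 in Cy3, with log2 ratios of -0.37, -0.24 and -0.28 (mean -0.29, adjusted p 0.0161). The calls of UGT1A6, UGT8 and AKR1C3 were lost without hairpin 3.

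Of the liver plasma protein genes, 10 of 30 were kept, 2 fell and none rose. TTR, which carries thyroxine, had log2 ratios of -0.48, -0.24 and -0.12 (mean -0.28, adjusted p 0.0464 by limma). APOE, a lipoprotein ligand, had log2 ratios of -0.32, -0.17 and -0.18 (mean -0.22, adjusted p 0.0387). Both calls were lost when any 1 hairpin was left out. That of APOE was also lost without background correction and with an offset of 16. With the Feature Extraction log ratios TTR was at -0.48 (adjusted p 0.162 by limma) and APOE at -0.20 (adjusted p 0.229).

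**Figure D4:**
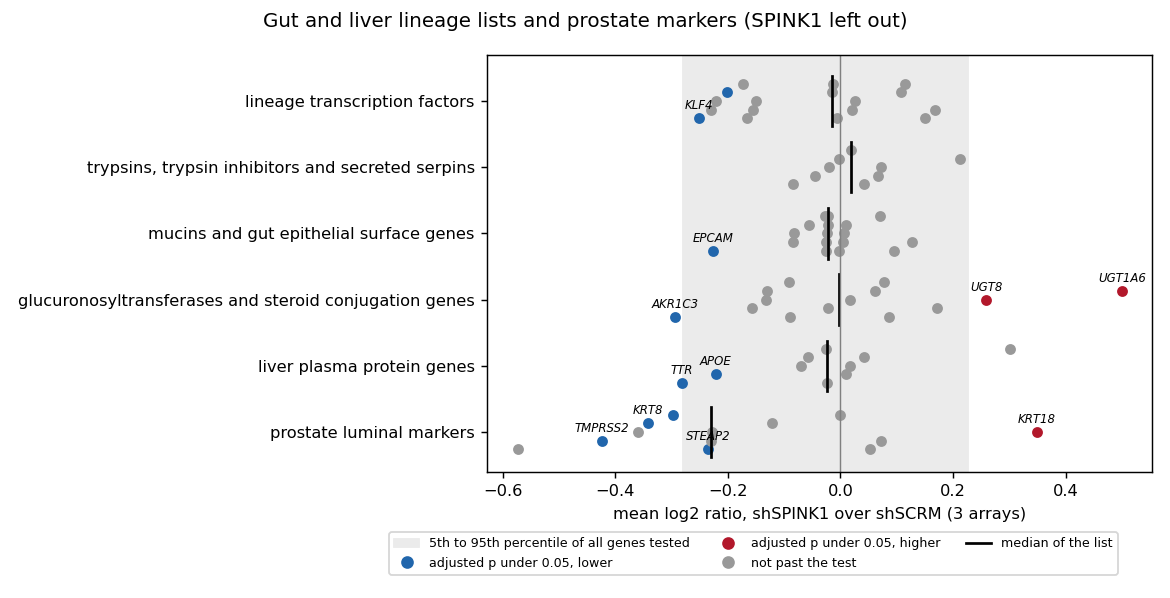
Mean log2 ratio of shSPINK1 over shSCRM (3 arrays) for each kept gene of the 5 lineage lists and of the prostate luminal markers, with SPINK1 left out; blue genes fell and red genes rose at an adjusted p under 0.05, those named in the text are labelled, black lines are list medians and the grey band spans the 5th to the 95th percentile of all genes tested. The 5 lineage lists are centred near 0, and the median of the prostate markers is -0.23.

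The SPINK1 result held its size under every setting tried, from -4.09 with median centring to -3.68 without hairpin 3. HNF4G stayed within 0.12 of 0 in all settings, and its intervals included 0 in each. The plot of the settings shows that the call of UGT2B15 depended on median centring or on leaving out hairpin 1.

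**Figure D5:**
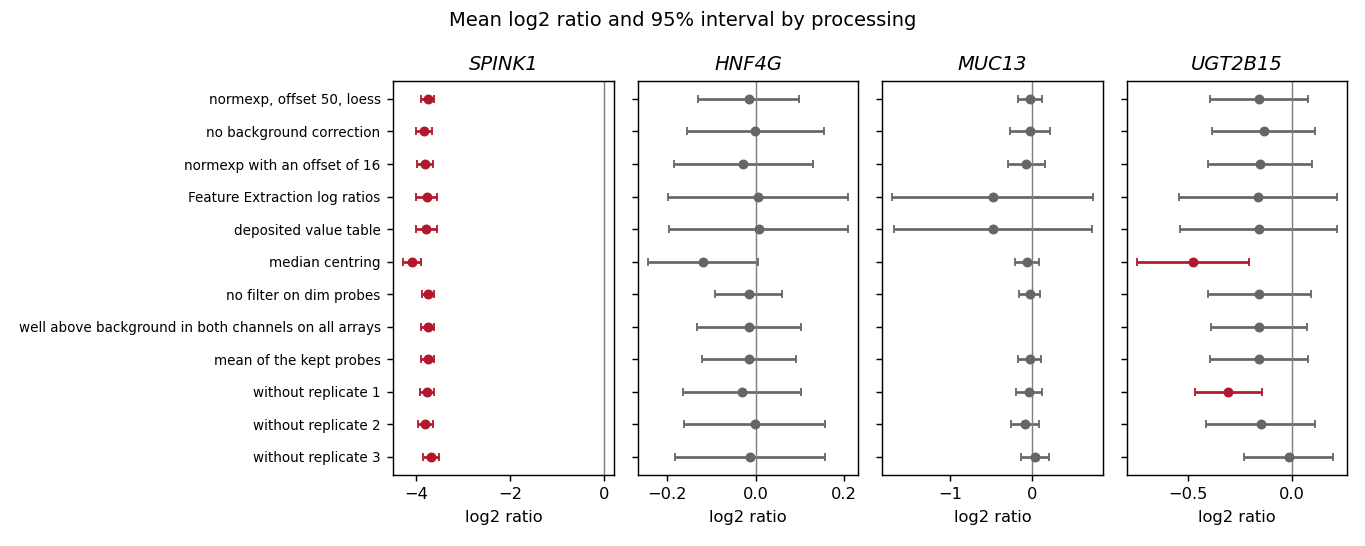
Mean log2 ratio of shSPINK1 over shSCRM with its 95% interval (limma) for SPINK1, HNF4G, MUC13 and UGT2B15, each on an axis of its own, under the main processing (top) and 11 alternatives; red points have an adjusted p under 0.05, and MUC13 has no value when both channels must be well above background on all arrays. SPINK1 is red throughout, and UGT2B15 is red in 2 settings.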

How the data were processed

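The authors deposited the scanner output of 3 two-color Agilent arrays (Feature Extraction 11.5.1.1), which gives for each spot the intensity and the local background in both channels without normalization, and a log10 ratio of Cy5 over Cy3 corrected for background and dye. A deposited table of log2 ratios, 1 value per gene name, was used as an alternative. Lowess normalization and a false discovery rate are given in the methods, without a test.

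Intensities were corrected with normexp (offset 50) and normalized by loess within each array in R 4.3.3 with limma 3.58.1. Control spots had no weight in the loess, outlier spots were left out, and spots of a probe were averaged. Kept probes had the scanner's flag for a signal well above background on every array, in Cy5, in Cy3 or in both, and the brightest kept probe stood for a gene. The mean log2 ratio was tested against 0 with limma's lmFit and eBayes, with Benjamini-Hochberg adjustment over 17061 genes. The eBayes step draws each gene's variance toward that of all genes, so the p-values and intervals rest partly on the other genes. The script was tested on simulated data.

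The 8 genes and the lists were chosen with earlier results of these data known. Named genes were the 8 genes, the list members past the test (at most 4 in each direction per list) and the 3 genes nearest to SPINK1; some items this rule would name are not reported here. The named prostate markers, those at background and the genes of the closing observations were chosen after their values were seen. RefSeq's table (GRCh38.p14) was used for names only. The number of arrays limits the precision.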

Additional observations from a re-analysis of the deposited data

How the results depend on the processing

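Each log2 ratio already pairs a hairpin with shSCRM on the same array, so no separate paired analysis was run. SPINK1 stayed lower, and past the test, under all 11 alternatives. HNF4G turned to 0.0051 with Agilent's log ratios and 0.0067 with the deposited table, and was otherwise below 0. MUC13 ranged from -0.084 to 0.046 when each hairpin was left out, and was 0.046 without hairpin 3. UGT2B15 passed the test with median centring (-0.48), and it ranged from -0.31 to -0.014 when each hairpin was left out, with -0.31 past the test without hairpin 1. Listed genes that fell numbered 7, against 4 without background correction, 4 with an offset of 16, 1 with the Feature Extraction log ratios, 1 with the deposited table, 30 with median centring, and 1 to 6 when each hairpin was left out (2 without hairpin 2 and 1 without hairpin 3). Listed genes that rose numbered 2, against 0 with Agilent's log ratios and 0 with the deposited table, 1 with median centring, and 0 to 3 when each hairpin was left out (0 without hairpin 3). At an unadjusted p under 0.05, limma gave 17 listed genes, 9 with the Feature Extraction log ratios, 8 with the deposited table, 34 with median centring and 21 without hairpin 3. Over all genes, 8.7% fell and 4.77% rose, against 60.6% and 0.533% with median centring, which moved the median to -0.23. With median centring UGT8 was at -0.026 and ALB at -0.012. AGR2 ranged from -0.39 to 0.36 when each hairpin was left out (0.36 without hairpin 3). VIL1 was at 0.014 without background correction, 0.035 with Agilent's log ratios and 0.030 with the deposited table, and ranged from -0.13 to 0.17 when each hairpin was left out (0.17 without hairpin 3). The cause of these shifts was not tested. Slide and scan could not be used as a block, since there was 1 of each. HNF4A, SERPINA1, CDX2 and UGT2B17 had no main value to compare. MUC13 had no value with both channels above background on all arrays. No gene among the 8 had a further kept probe. Signal near background limits HNF4G, HNF4A, SERPINA1, MUC13 and CDX2.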

Other observations

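Some gut and liver genes outside the test's calls stood out in their values and were chosen after these were seen. AGR2, a disulfide isomerase of mucus-secreting cells, read 256, 217 and 240 in the shSCRM channel and 321, 147 and 76.6 in the shSPINK1 channel with hairpins 1, 2 and 3. Its log2 ratios were 0.71, 0.02 and -0.80, and 0.0293% of all genes had a range over the hairpins as large. VIL1, an actin-bundling protein of the brush border, had log2 ratios of 0.16, 0.18 and -0.41. In both genes, as at the UGT2B15 probe, hairpin 3 gave the lowest value, and each hairpin was measured on 1 array. This was not shared by all genes of the lists. PHGR1, of the gut surface list, had log2 ratios of 0.08, -0.46 and 0.31. APOH, of the liver list, had -0.17, -0.22 and 0.18, so both were highest with hairpin 3.

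ALB, the main plasma protein of the liver, was bright in 22RV1 cells, with 13300, 13400 and 12400 scanner units in the shSCRM channel and 14900, 10000 and 11300 in the shSPINK1 channel. Its log2 ratios were 0.45, 0.04 and 0.41, with a mean of 0.30 (adjusted p 0.0540 by limma), and without hairpin 2 the mean was 0.43 (adjusted p 0.0138). The mean was 0.25 (adjusted p 0.231 by limma) without hairpin 3, 0.03 (adjusted p 0.878) with the Feature Extraction log ratios, 0.04 (adjusted p 0.874) with the deposited table and -0.01 (adjusted p 0.925) with median centring. The 128 genes of like brightness, within 0.25 on the log2 scale, centred on a log2 ratio of 0.18 (the median), while the median over all genes was -0.01, and the part of this shift in the ratio of ALB was not tested. KRT18, at a mean of 0.35, had 128 such genes with a median of 0.18.

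HNF4A-AS1, a transcript antisense to HNF4A, exceeded the background clearly on every array in both channels, at 32, 24.2 and 21.2 in Cy5 and 46.4, 40.9 and 42.2 in Cy3. The noncoding transcripts lnc-HNF4G-1 and lnc-CDX2-1 were not well above background on any array.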
